A study of Mus musculus with 12 samples.

Results

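The transcripts of 10 genes of ferroptosis defence and glutathione synthesis were followed in HT22 cells: Slc7a11, Gclc, Gclm, Gss, Gpx4, Aifm2, Acsl4, Lpcat3, Dhodh and Nqo1. They were selected by name, with earlier results of these data known, and all 10 were found among the 24343 genes of the deposited tables. Their levels are given in FPKM, that is, fragment counts divided by transcript length in kilobases and by the size of the library. This allows genes of unlike length to be compared within a library, but does not ensure an equal scale between libraries. All 10 also passed the filter for testing, which kept the 11924 genes that reached 0.5 FPKM in 3 or more of the 12 libraries.

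HT22 is an immortalized mouse hippocampal cell line, used as a culture model of hippocampal neurons. Cells of the siControl group received a negative control siRNA and no chelator, and cells of the siNCOA4 group received an siRNA against Ncoa4, the cargo receptor that delivers ferritin to the lysosome for release of its iron. The siControl+DFO and siNCOA4+DFO groups received the same siRNAs and, in addition, the iron chelator deferoxamine (DFO) at 100 µM for 24 h. Every group held 3 biological replicates, and all 4 groups went through liposome-mediated transfection, so that no untransfected cells were compared. The model is a single cell line with a single Ncoa4 siRNA, and a knockdown leaves part of the transcript in place. The study reported lower viability of HT22 cells when siRNA and DFO were combined, and not with either alone. Its part in the transcript levels was not tested.

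Ncoa4 itself was at 6.46, 6.19 and 6.02 FPKM in siControl, 0.770, 0.952 and 0.891 FPKM in siNCOA4, 8.70, 8.31 and 7.52 FPKM in siControl+DFO, and 0.850, 1.29 and 1.57 FPKM in siNCOA4+DFO. Every library with the Ncoa4 siRNA thus lay below every library without it. The FPKM of all genes summed to 565558 to 627826 in libraries without DFO and to 676428 to 737313 in libraries with it. Relative read depth, estimated from the step between the lowest values, spanned 1.52-fold over the 12 libraries, and the shallowest library, siNCOA4+DFO replicate 3, also had the lowest mean correlation with its group mates (0.93, against 0.953 for the highest). The neuronal label was only partly met, since Map2, Rbfox3, Nefl, Snap25 and Grin1 did not exceed 0.179 FPKM in any library and Chat was listed at 0, while Tubb3, Eno2, Syn1 and Dlg4 were measured. Of 13 neuronal markers, 4 reached 1 FPKM, and the summed level of the 13 was 28.4 to 33.6 FPKM in siControl, 23.2 to 29.2 in siNCOA4, 44.3 to 50.7 in siControl+DFO and 35.8 to 40.6 in siNCOA4+DFO. The 4 did not move alike. From siControl to siControl+DFO, mean Eno2 went from 4.63 to 21.7 FPKM and Tubb3 from 7.77 to 12.5. Over the same groups Dlg4 went from 13.3 to 7.68 FPKM and Syn1 from 5.52 to 5.32, so the sum does not stand for each marker. Of 5 fibroblast markers, the collagens Col1a1 and Col1a2 were abundant, at means of 383 and 1002 FPKM in siControl. Pdgfra was at 20.2 and Dcn at 7.90 FPKM there, and Lum did not exceed 0.434 FPKM in any library. The summed level of the 5, chiefly that of the collagens, was 1282 to 1574 FPKM in siControl and 728 to 930 in siNCOA4. It was 347 to 464 in siControl+DFO and 394 to 482 in siNCOA4+DFO. The sum was thus lower with DFO, and lower with the siRNA in the absence of DFO, while the groups with DFO overlapped. The part of these shifts in the results for the 10 genes was not tested.

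Ferroptosis is a form of cell death driven by iron-dependent peroxidation of phospholipids. Cells resist it by importing cystine through system xc-, whose transporting subunit is encoded by Slc7a11, and by turning the resulting cysteine into glutathione. Glutamate cysteine ligase, made of the catalytic subunit Gclc and the modifier subunit Gclm, performs the rate-limiting step, and glutathione synthetase (Gss) the final one. Glutathione peroxidase 4 (Gpx4) spends glutathione to reduce phospholipid hydroperoxides. Aifm2, also called FSP1, and the mitochondrial enzyme Dhodh supply a parallel defence by reducing coenzyme Q, and Nqo1 is a quinone reductase and a textbook target of the antioxidant transcription factor NRF2. Acsl4 and Lpcat3 act on the other side, as they place polyunsaturated fatty acids into phospholipids, where peroxidation takes place. HT22 cells are a common model of oxidative glutamate toxicity, in which blocked cystine import empties the glutathione pool.

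Promoter letters are shown because Slc7a11 and Gclm are textbook targets of ATF4 and NRF2. RefSeq windows on GRCm38.p6, from 250 bases before to 50 bases after the transcription start, were matched for 8 of the 10 genes; Gclc and Dhodh had no match. The windows were searched on both strands for TTGCATCA, the composite site of C/EBP and ATF4, for TGACNNNGC, the core of the antioxidant response element bound by NRF2, and for ACGTG, the core of the hypoxia response element. Among 32851 mouse windows of that length, TTGCATCA was held by 0.895%, TGACNNNGC by 12.4% and ACGTG by 19.6%. Among the 8 genes, only Slc7a11 held the ATF4 letters, at 2 places and in opposite orientations, and only Gclm held the other motifs, once each. Capitals mark the motif, each sequence reads along the strand of its gene, and 8 bases are shown on either side.
Slc7a11, chr3:50443664-50443687, minus strand, motif at -66 from the start: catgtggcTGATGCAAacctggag
Slc7a11, chr3:50443645-50443668, minus strand, motif at -47 from the start: tggagaatTTGCATCAtcatgcag
Gclm, chr3:122245415-122245439, plus strand, TGACNNNGC read on the opposite strand at -134 from the start: tcccgggcGCACCGTCAactctcac
Gclm, chr3:122245482-122245502, plus strand, ACGTG read on the opposite strand at -67 from the start: agggggcgCACGTccgcgcgc
A match describes these letters only and is not evidence of binding, and a window without a match says nothing about a factor that acts elsewhere.

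In siControl cells the genes spanned a wide range of transcript levels. Gpx4 was the highest at 145 ± 22.04 FPKM (mean ± SD, n = 3), above 96.4% of the genes tested. Acsl4 (44.2 ± 2.55) and Nqo1 (42.3 ± 3.79) followed, and their libraries overlapped. Gclm stood alone at 27.4 ± 3.89 FPKM, then came Gclc (15.7 ± 1.29) and Lpcat3 (13.8 ± 2.1), which overlapped, and Aifm2 (8.39 ± 0.890) and Gss (8.13 ± 1.28), which also overlapped. Dhodh was at 4.28 ± 1.07 FPKM. Slc7a11 was the lowest of the 10 at 1.36 ± 0.175 FPKM, above no more than 12.8% of the genes tested.

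The order changed with treatment. In siNCOA4 cells the first 5 places were unchanged, and Slc7a11 was still the lowest, although its libraries now overlapped those of Dhodh. With DFO, Slc7a11 moved to the 6th place in siControl+DFO and to the 3rd place in siNCOA4+DFO, above 61.4% and 74.0% of the genes tested. Nqo1 went the other way, from the 3rd place in siControl to the 8th in siControl+DFO and the 6th in siNCOA4+DFO, and from above 85.3% of genes to above 56.2% and 59.4%. Gpx4 and Acsl4 kept the first and second places in all 4 groups, without overlap between them. Aifm2 stayed within 8.39 to 9.04 FPKM as group means.

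**Figure D1:**
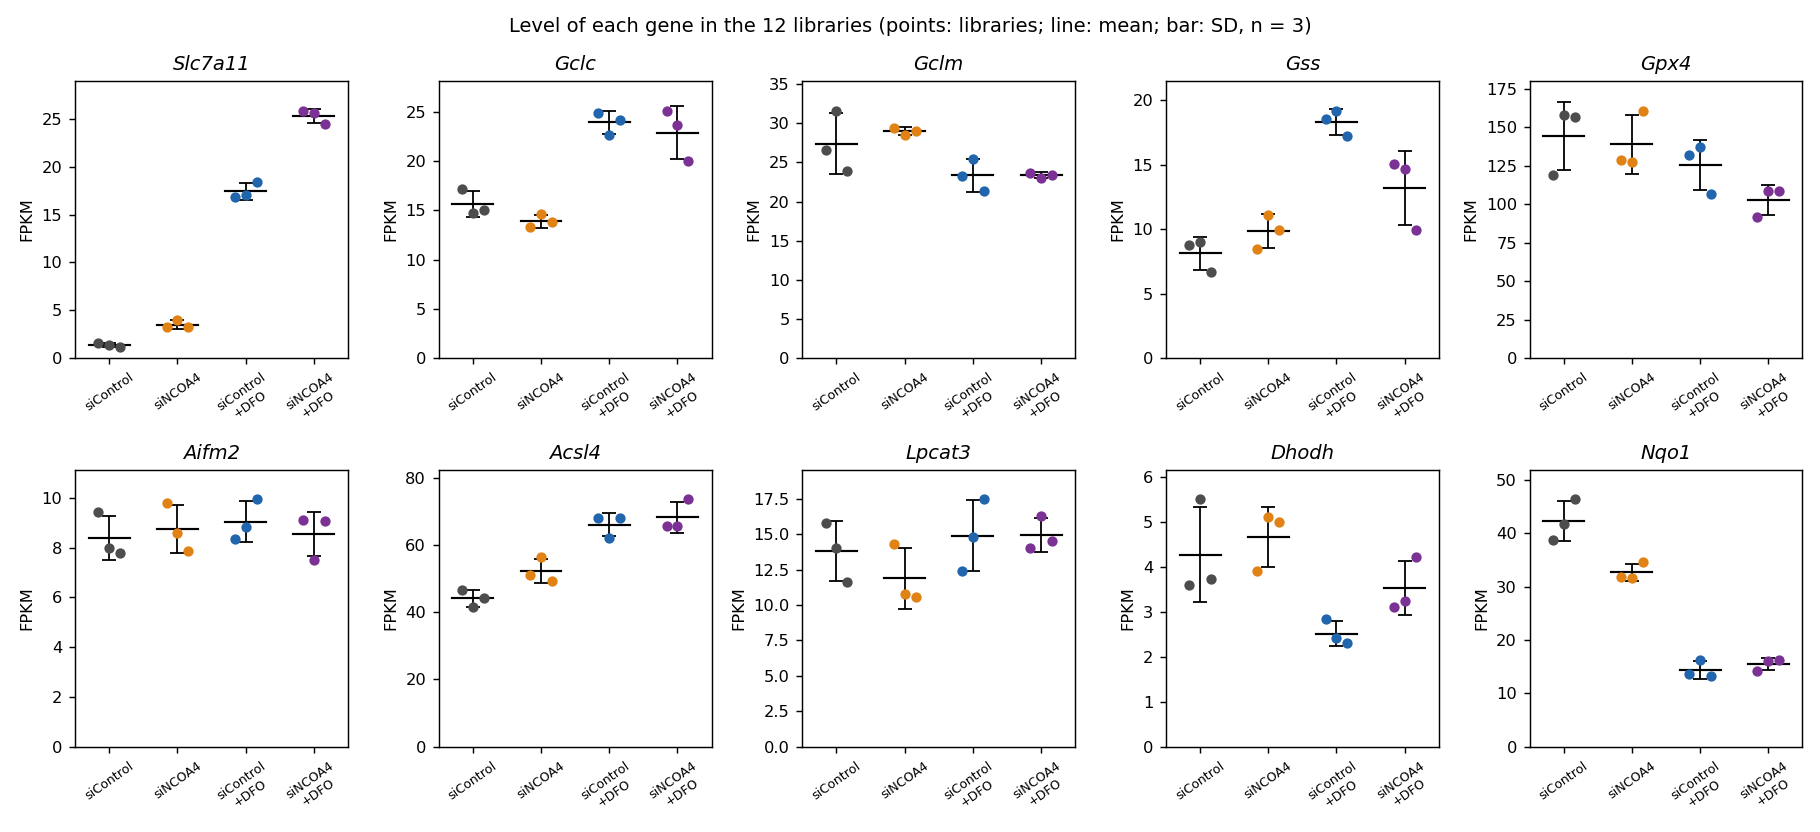
FPKM (y axis, linear, from 0) of each of the 10 genes in the 4 groups (x axis); points are the 12 libraries, lines the mean and bars the SD of 3 replicates. Slc7a11 climbs from 1.36 to 25.3 FPKM across the groups without overlap, Nqo1 drops from 42.3 to 14.4 FPKM with DFO, and the groups of Aifm2 and of Lpcat3 overlap.

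The groups were compared by fitting log2(FPKM + 0.1) with limma over all 12 libraries, with p-values adjusted by the Benjamini-Hochberg method over all 11924 genes, and a gene is called changed at an adjusted p below 0.05. A log2 fold change is always the first-named group minus the second. With the Ncoa4 siRNA alone, 2 of the 10 genes changed against siControl, where 11.7% of all genes were called. Slc7a11 was the 1 that rose, as did 4.52% of all genes, and Nqo1 the 1 that fell, as did 7.21%. With DFO alone, 6 of 10 changed, where 53.4% of all genes were called. Slc7a11, Gss, Gclc and Acsl4 rose, beside 27.7% of all genes, and Nqo1 and Dhodh fell, beside 25.7%, so the count is close to that of the transcriptome at large. In siNCOA4+DFO against siControl, 6 of 10 changed as well, against 48.8% of all genes. Slc7a11, Gss, Acsl4 and Gclc were higher, beside 25.4% of all genes, and Nqo1 and Gpx4 were lower, beside 23.4%. DFO in siNCOA4 cells changed 6 of 10, against 42.7%, with Slc7a11, Gclc and Acsl4 higher, beside 23.1% of all genes, and Nqo1, Gpx4 and Gclm lower, beside 19.6%. Between the siRNAs in the presence of DFO, Slc7a11 alone of the 10 changed, against 16.5% of all genes, and it rose, as did 6.22%. The comparisons with siControl share the same 3 siControl libraries.

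A looser view is whether the 3 libraries of one group all lay to one side of the other group. With the siRNA alone this held for 4 of the 10 genes, Slc7a11, Gclc, Acsl4 and Nqo1, and for 32.6% of all genes. It held for 6 with DFO alone, beside 60.7% of all genes, and for 7 in siNCOA4+DFO against siControl, beside 54.8%. For DFO in siNCOA4 cells it held for 6, beside 52.6%, and between the siRNAs with DFO for 3, Slc7a11, Gss and Dhodh, beside 34.8%.

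Few of these changes exceeded 2-fold, the limit used by the study. Slc7a11 alone did so with the Ncoa4 siRNA, where 1.78% of all genes passed both criteria. With DFO alone Slc7a11, Gss and Nqo1 did, beside 18.8% of all genes, and in siNCOA4+DFO against siControl Slc7a11 and Nqo1 did, beside 15.2%. The same 2 genes passed for DFO in siNCOA4 cells, beside 11.4%, and none passed between the siRNAs in the presence of DFO, beside 2.09%, or for the interaction of siRNA and DFO, beside 0.813%. The median log2 fold change over the 10 genes was 0.07 for siNCOA4, 0.11 for DFO and 0.07 for both, beside 0.01, -0.01 and 0.01 over all genes tested.

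**Figure D2:**
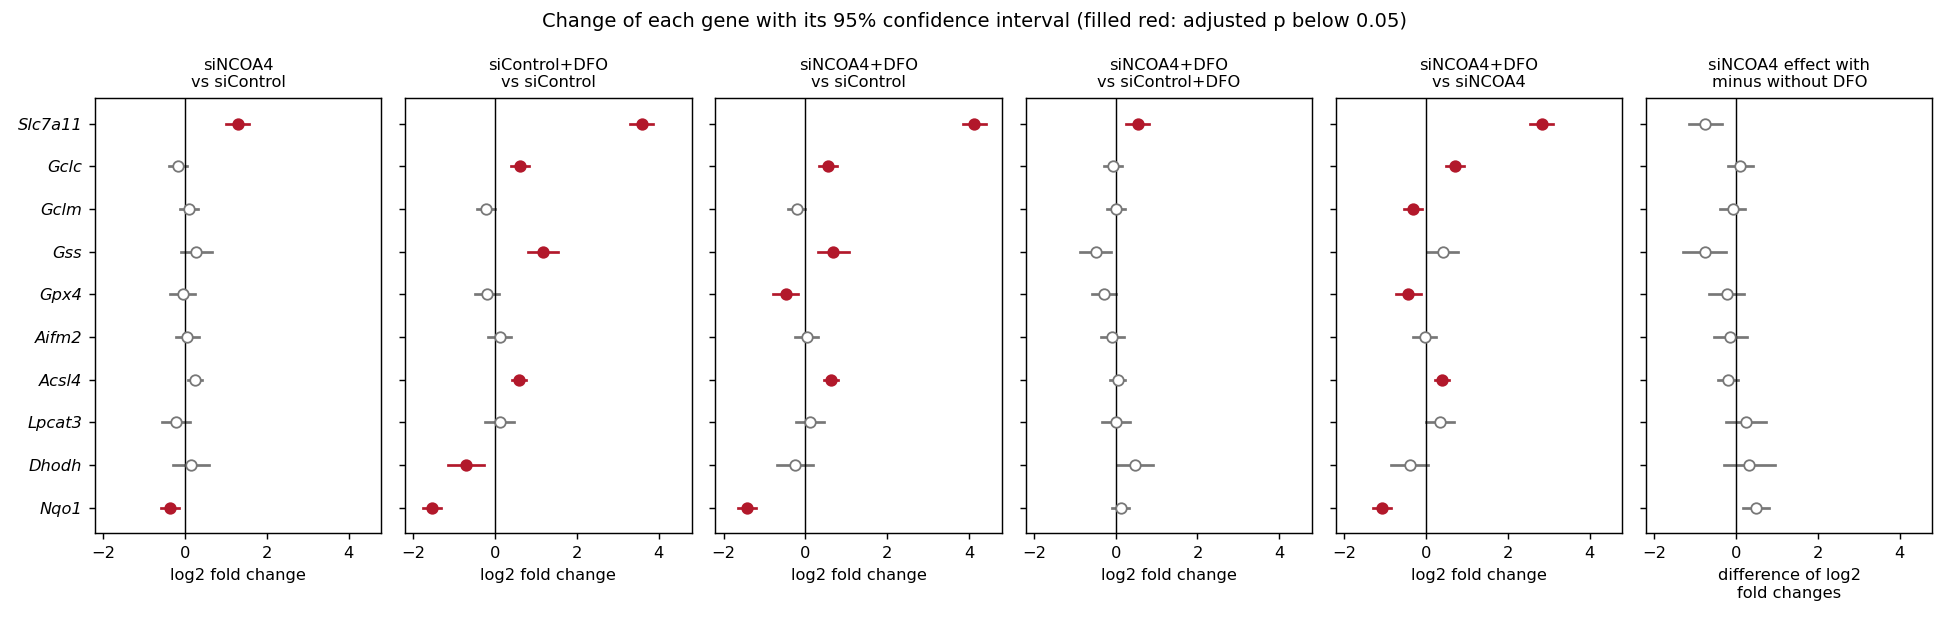
Log2 fold change (x axis) of each of the 10 genes (y axis) in 5 comparisons and, at the right, the interaction, which is the siNCOA4 effect under DFO minus that in its absence; bars are 95% confidence intervals and filled red points have an adjusted p below 0.05. Slc7a11 is called in all 5 comparisons and lies to the right in each, from 0.54 to 4.12, and no gene passes in the right-hand panel.

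Slc7a11 showed the widest response of the 10. The gene lies on chromosome 3 at 49892526 to 50443614 on the minus strand (GRCm38, GENCODE M21). Its transcript was at 1.55, 1.35 and 1.198 FPKM in siControl, 3.22, 4.02 and 3.21 FPKM in siNCOA4, 16.8, 17.1 and 18.4 FPKM in siControl+DFO, and 25.9, 25.6 and 24.4 FPKM in siNCOA4+DFO. The 4 groups did not overlap, and each treatment lay above siControl in every library. The Ncoa4 siRNA raised it by 1.29 on the log2 scale (SE 0.13, 95% confidence interval 1.01 to 1.57, adjusted p = 8.699e-05), the 208th highest change of all genes. DFO raised it 12.01-fold (log2 fold change 3.59, interval 3.30 to 3.87, adjusted p = 1.99e-09). The combination raised it 17.4-fold over siControl (log2 fold change 4.12, interval 3.84 to 4.40, adjusted p = 8.643e-10), the 67th highest change of all genes. Because RNA came from whole cultures, a shift in the mix of cells and a shift in RNA per cell cannot be told apart here.

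The siRNA effect on Slc7a11 was also seen on top of DFO, at a smaller size. Between siNCOA4+DFO and siControl+DFO the log2 fold change was 0.54 (interval 0.25 to 0.82, adjusted p = 0.01538), which corresponds to 1.45-fold, and every library of the first group lay above every library of the second. This call was lost without siControl+DFO replicate 1 or replicate 2, and the adjusted p over all alternatives ranged from 0.0066 to 0.055. DFO raised Slc7a11 by 2.83 on the log2 scale in siNCOA4 cells (adjusted p = 2.951e-08), against 3.59 in siControl cells. The difference between the siRNA effects with and without DFO was -0.75 (interval -1.15 to -0.36) and did not pass the correction (adjusted p = 0.05678). It passed when only genes with an FPKM of at least 2 were tested (adjusted p = 0.0479) and without siControl replicate 1 (0.0448), within a range of 0.0448 to 0.167 over the alternatives.

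Slc3a2 encodes the heavy chain that anchors Slc7a11 in the plasma membrane and also serves other amino acid transporters. Its transcript was far more abundant than that of Slc7a11, at 72.4 ± 1.73 FPKM in siControl, 60.2 ± 2.57 in siNCOA4, 237 ± 26.8 in siControl+DFO and 199 ± 41.2 in siNCOA4+DFO. It rose with DFO (log2 fold change 1.70, adjusted p = 6.509e-07) but not detectably with the siRNA (log2 fold change -0.27, interval -0.56 to 0.02, adjusted p = 0.23). The ratio of the levels of the heavy to the light chain transcript within a library was 48.1, 52.7 and 59.9 in siControl and 18.4, 14.5 and 19.7 in siNCOA4. It was 12.4, 15.2 and 13.3 in siControl+DFO and 8.62, 8.66 and 6.18 in siNCOA4+DFO. The subunit transcripts thus came closer to each other with each treatment, although the siNCOA4 and siControl+DFO ratios overlapped, and the ratios were not tested.

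The subunits of glutamate cysteine ligase parted with DFO. Gclc, the catalytic subunit on chromosome 9 (77754535 to 77794485, plus strand), was at 17.1, 14.8 and 15.1 FPKM in siControl, 13.3, 14.6 and 13.8 in siNCOA4, 24.9, 22.7 and 24.2 in siControl+DFO, and 25.1, 23.6 and 19.96 in siNCOA4+DFO. All libraries with DFO lay above all libraries without it. The rise was 0.61 on the log2 scale in siControl cells (SE 0.10, adjusted p = 0.0002537) and 0.71 in siNCOA4 cells (adjusted p = 0.0001237). The siRNA itself gave -0.17 (interval -0.39 to 0.05) without DFO and -0.07 (interval -0.29 to 0.15) with it, and neither was called.

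Gclm, the modifier subunit on chromosome 3 (122245557 to 122270732, plus strand), was at 26.6, 31.6 and 23.9 FPKM in siControl and 29.5, 28.5 and 29.0 FPKM in siNCOA4. With DFO it was at 23.2, 25.4 and 21.3 FPKM in siControl cells and 23.7, 23.0 and 23.4 FPKM in siNCOA4 cells. The siControl libraries overlapped those of siControl+DFO but lay above all 3 of siNCOA4+DFO, as did the siNCOA4 libraries. DFO gave a log2 fold change of -0.22 in siControl cells (interval -0.44 to -0.01, adjusted p = 0.07617) and of -0.31 in siNCOA4 cells (interval -0.52 to -0.09, adjusted p = 0.02563), and only the latter was called. The former passed under quantile normalization and without siControl replicate 3 or siControl+DFO replicate 2 (range 0.012 to 0.324), and the effects in the 2 cell states were not shown to differ (difference -0.08, adjusted p = 0.8051). The call in siNCOA4 cells was lost without any 1 of the siNCOA4 replicates and without siNCOA4+DFO replicate 1 or 2, and its adjusted p over all alternatives ranged from 0.00678 to 0.0697. Gclm was thus called higher in no comparison. Gm17494 and Gm6061 overlap Gclm exons, and 3.5% of the 75-base windows of its exons also occur in other genes.

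The ratio of the Gclm to the Gclc level summarises this split. It was 1.56, 2.14 and 1.59 in siControl and 2.21, 1.95 and 2.11 in siNCOA4, and 0.933, 1.123 and 0.882 in siControl+DFO and 0.943, 0.976 and 1.18 in siNCOA4+DFO. Modifier transcript exceeded catalytic transcript in every library without DFO, and both were near parity with DFO, with no overlap between the 6 and the 6 libraries. The ratio was not tested.

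**Figure D3:**
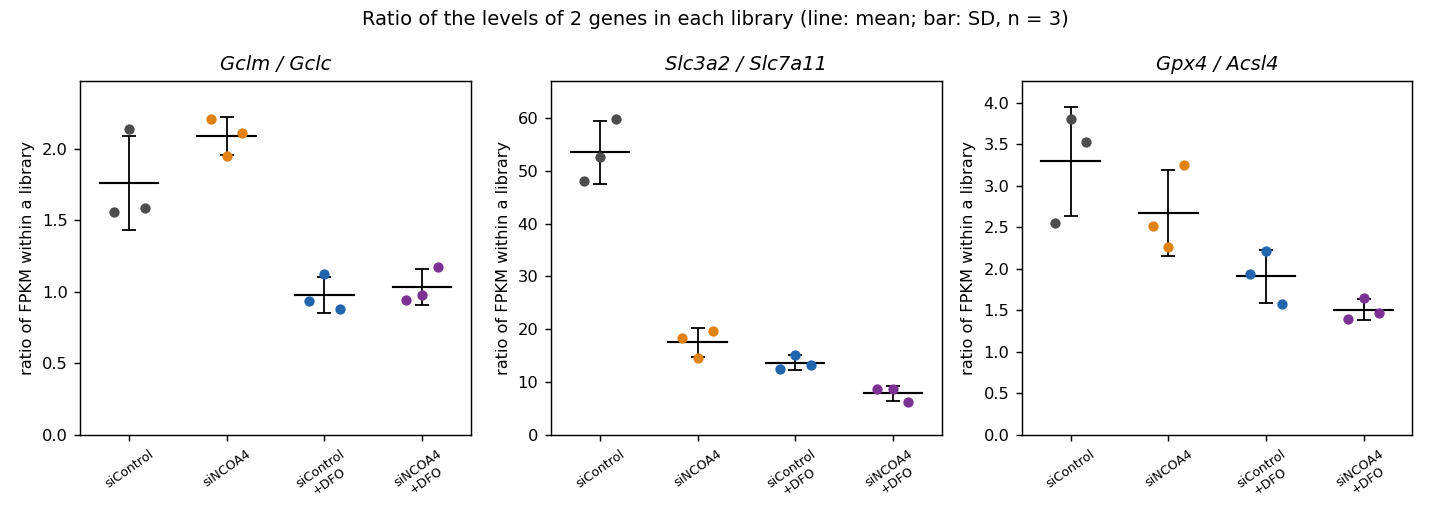
Ratio of the FPKM of 2 genes within each library (y axis, linear, from 0) in the 4 groups (x axis) for Gclm over Gclc, Slc3a2 over Slc7a11 and Gpx4 over Acsl4; points are libraries, lines the mean and bars the SD of 3 replicates. The Gclm to Gclc ratio falls from 1.76 in siControl to 0.979 in siControl+DFO, and the Slc3a2 to Slc7a11 ratio from 53.6 to 7.82 in siNCOA4+DFO.

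Gss, the enzyme of the final step of glutathione synthesis, rose with DFO in siControl cells. It lies on chromosome 2 (155563181 to 155592810, minus strand) and was at 8.75, 8.98 and 6.66 FPKM in siControl, 8.48, 11.1 and 9.96 in siNCOA4, 18.5, 19.2 and 17.2 in siControl+DFO, and 15.1, 14.7 and 9.91 in siNCOA4+DFO. The siControl+DFO libraries were above all others. DFO raised Gss 2.25-fold in siControl cells (log2 fold change 1.17, SE 0.17, adjusted p = 0.0001058). In siNCOA4 cells the log2 fold change was 0.41 (interval 0.03 to 0.78, adjusted p = 0.07411), and siNCOA4+DFO replicate 3 lay inside the siNCOA4 range. Without that library the adjusted p was 0.00708, and with the replicate number as a block it was 0.0442, in a range of 0.00708 to 0.236 over the alternatives.

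Between the siRNAs in the presence of DFO, Gss had a log2 fold change of -0.49 (interval -0.86 to -0.12, adjusted p = 0.07002), and the groups did not overlap. The replicate block brought the adjusted p to 0.0471, at the low end of a range of 0.0471 to 0.231. The difference between the siRNA effects with and without DFO was -0.77 (interval -1.29 to -0.24, adjusted p = 0.1183). Acss2, Gssos1 and Gssos2 overlap Gss exons on the opposite strand, and 7.76% of its 75-base windows occur in other genes, so that reads could be shared if strand was ignored in counting.

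Gpx4, the most abundant of the 10, was called lower where both treatments were combined and with neither treatment alone. It lies on chromosome 10 (80047166 to 80056439, plus strand) and was at 119, 158 and 156 FPKM in siControl, 128, 127 and 161 in siNCOA4, 132, 137 and 107 in siControl+DFO, and 91.8, 108 and 108 in siNCOA4+DFO. The single treatments overlapped siControl, and the combination lay below both siControl and siNCOA4 in every library. Against siControl the combination gave a log2 fold change of -0.48 (SE 0.14, adjusted p = 0.01168), and against siNCOA4 it gave -0.43 (adjusted p = 0.02496). DFO alone gave -0.20 (interval -0.50 to 0.10, adjusted p = 0.2377) and the siRNA alone -0.05 (interval -0.36 to 0.25).

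These Gpx4 calls rested on single libraries. The first was lost without siControl replicate 2 (adjusted p just above 0.05) or siNCOA4+DFO replicate 1 (0.0505), in a range of 0.00276 to 0.0505, and the second without siNCOA4 replicate 3 or siNCOA4+DFO replicate 1, in a range of 0.0124 to 0.109. The difference between the siRNA effects with and without DFO was -0.23 (interval -0.65 to 0.20, adjusted p = 0.592), so the combination was not shown to differ from the sum of the single treatments. Of the 75-base windows of Gpx4 exons, 29.8% also occur in other genes, chiefly the pseudogene Gpx4-ps2, and the Gpx4 level is uncertain to that extent.

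Of the quinone reducers, Aifm2 was called in no comparison, and Dhodh and Nqo1 fell with DFO. Aifm2, on chromosome 10 (61715263 to 61739260, plus strand), was at 9.42, 7.98 and 7.78 FPKM in siControl, 9.79, 8.57 and 7.88 in siNCOA4, 8.34, 8.84 and 9.94 in siControl+DFO, and 9.09, 7.52 and 9.05 in siNCOA4+DFO. All 4 groups overlapped. Its log2 fold changes lay between -0.08 and 0.11 in the 5 comparisons, and the interval for DFO alone ran from -0.18 to 0.39. H2afy2 overlaps 3.9% of its 75-base windows on the opposite strand.

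Dhodh, which links pyrimidine synthesis to the mitochondrial coenzyme Q pool, lies on chromosome 8 (109591343 to 109608673, minus strand). It was at 3.61, 5.51 and 3.73 FPKM in siControl, 3.91, 5.12 and 5.02 in siNCOA4, 2.84, 2.41 and 2.30 in siControl+DFO, and 3.12, 3.26 and 4.22 in siNCOA4+DFO. The siControl+DFO libraries were the lowest of all. DFO lowered Dhodh 1.65-fold in siControl cells (log2 fold change -0.72, SE 0.20, adjusted p = 0.009927). In siNCOA4 cells DFO gave -0.40 (interval -0.84 to 0.04, adjusted p = 0.1352), and the combination gave -0.26 against siControl (adjusted p = 0.3181). The difference between the siRNA effects was 0.32 (interval -0.30 to 0.95), so a smaller DFO response in siNCOA4 cells was not shown.

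Nqo1 had the deepest fall of the 10. It lies on chromosome 8 (107388225 to 107403206, minus strand) and was at 38.8, 41.8 and 46.3 FPKM in siControl, 31.8, 31.6 and 34.5 in siNCOA4, 13.6, 16.2 and 13.2 in siControl+DFO, and 14.2, 16.1 and 16.3 in siNCOA4+DFO. All siNCOA4 libraries lay below siControl, and all 6 libraries with DFO lay below both, while the groups with DFO overlapped each other. DFO lowered Nqo1 2.94-fold in siControl cells (log2 fold change -1.55, SE 0.10, adjusted p = 1.34e-07) and 2.09-fold in siNCOA4 cells (log2 fold change -1.07, adjusted p = 6.169e-06). The combination gave -1.44 against siControl (adjusted p = 3.966e-07). These 3 calls held in every alternative tried.

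The fall of Nqo1 with the siRNA alone was smaller and less firm. The log2 fold change was -0.37 (interval -0.59 to -0.15, adjusted p = 0.03386). It lost the call under quantile normalization, with moderation without a trend, and without siControl replicate 2 or 3 or any 1 of the siNCOA4 replicates, and its adjusted p ranged from 0.0256 to 0.114. With DFO the siRNA gave 0.12 (interval -0.10 to 0.34), and the difference between the siRNA effects was 0.49 (interval 0.18 to 0.80, adjusted p = 0.09475).

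Of the enzymes that load polyunsaturated fatty acids into phospholipids, Acsl4 rose with DFO and Lpcat3 was called in no comparison, and the difference between the genes was not tested. Acsl4, on the X chromosome (142317993 to 142390535, minus strand), was at 46.6, 41.5 and 44.4 FPKM in siControl, 51.1, 56.3 and 49.4 in siNCOA4, 68.1, 62.1 and 67.9 in siControl+DFO, and 65.5, 65.5 and 73.5 in siNCOA4+DFO. The groups without DFO did not overlap each other or the groups with DFO, and the latter overlapped. DFO raised it 1.5-fold in siControl cells (log2 fold change 0.58, SE 0.08, adjusted p = 6.216e-05) and 1.3-fold in siNCOA4 cells (log2 fold change 0.38, adjusted p = 0.001972). The siRNA alone gave 0.24 (interval 0.07 to 0.41, adjusted p = 0.06996) and passed in 1 alternative, without siNCOA4+DFO replicate 3 (adjusted p = 0.0481, range 0.0481 to 0.235).

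Lpcat3, on chromosome 6 (124663027 to 124704418, plus strand), was at 15.8, 14.03 and 11.6 FPKM in siControl, 14.3, 10.8 and 10.5 in siNCOA4, 12.4, 14.8 and 17.4 in siControl+DFO, and 13.99, 16.3 and 14.5 in siNCOA4+DFO. No comparison was called, and the groups overlapped in all 5. The log2 fold change for DFO in siControl cells was 0.10, with an interval of -0.24 to 0.45. In siNCOA4 cells it was 0.34 (interval -0.01 to 0.69, adjusted p = 0.1052). Emg1 overlaps 7.49% of its 75-base windows on the opposite strand.

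Set against each other within a library, the peroxide-reducing Gpx4 and the substrate-making Acsl4 drew closer. The ratio of the Gpx4 to the Acsl4 level was 2.56, 3.81 and 3.53 in siControl, 2.51, 2.26 and 3.25 in siNCOA4, 1.94, 2.21 and 1.57 in siControl+DFO, and 1.40, 1.65 and 1.47 in siNCOA4+DFO. All libraries with DFO were below all libraries without it. The groups that differed in siRNA alone overlapped, both with and without DFO, and the ratio was not tested.

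The difference between the siRNA effects with and without DFO was called for 0 of the 10 genes in limma, beside 2.1% of all genes. An unadjusted p below 0.05 was reached by 3 of them, Slc7a11 (-0.75), Gss (-0.77) and Nqo1 (0.49), and by 18.2% of all genes. The siRNA effects without and with DFO were 1.29 and 0.54 for Slc7a11, 0.28 and -0.49 for Gss, and -0.37 and 0.12 for Nqo1.

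The genes whose pattern over the 12 libraries was most like that of the 3 widest-ranging members were sought among the 10836 tested genes whose mean level reached 1 FPKM, by Pearson's r of log2 levels. The libraries share 4 group means, so these values are a description. Closest to Slc7a11 were Ccdc47 (r = 0.996), Inpp5d (r = 0.994) and the collagen lysyl hydroxylase Plod2 (r = 0.992). Plod2 went from 15.4 FPKM in siControl to 24.2 in siNCOA4, 107 in siControl+DFO and 125 in siNCOA4+DFO, so that it too was higher with the siRNA in both settings. Closest to Nqo1 were the linker histone gene H1f0 (r = 0.989), Rhox5 (r = 0.986) and Ubtf (r = 0.983), a factor of ribosomal RNA transcription. Closest to Gss were the transcription factor Irf1 (r = 0.978), Ube2g2 (r = 0.9754) and Hax1 (r = 0.965). Irf1 had, like Gss, its peak in siControl+DFO, at 48.6 FPKM, against 32.5 in siNCOA4+DFO and 21.3 in siControl.

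The wider pathway was followed through 6 gene lists. From each, the 3 called genes with the largest change and those called for the interaction are given with their levels, and other genes that make up a small count are named after their values were seen. Of 18 genes of glutathione supply, recycling and breakdown, 14 were tested. DFO raised 5 of them and lowered 3, where 27.7% of all genes rose and 25.7% fell, and the median log2 fold change of the list was 0.32 against -0.01 over all genes. Cth, which makes cysteine from cystathionine, went from 11.05 ± 1.02 FPKM in siControl to 54.9 ± 2.74 in siControl+DFO (log2 fold change 2.31, adjusted p = 3.834e-09). Chac1, which by contrast breaks glutathione down, went from 13.8 ± 0.355 to 55.4 ± 4.46 FPKM (log2 fold change 1.99, adjusted p = 1.31e-07). Cth and Chac1 transcripts were therefore both higher in the same cultures, and Slc3a2, Slc25a40 and Slc1a5 made up the rest of the rises. The breakdown genes Chac2 (0.05, adjusted p = 0.8675) and Ggct (0.68, adjusted p = 0.09156) were not called. Ggt1, Ggt5 and Ggt7, and the cysteine supply gene Cbs, were too low to be tested. The 3 that fell were the glutaredoxins Glrx (-1.50) and Glrx2 (-0.76, adjusted p = 0.04603, range over the alternatives 0.0306 to 0.193) and the mitochondrial glutathione importer Slc25a39 (-0.35). With the siRNA alone, Cth rose by 0.59 (adjusted p = 0.001989) and the glutamine transporter Slc1a5 fell by 0.38 on the log2 scale (adjusted p = 0.04067, range over the alternatives 0.0316 to 0.135), and the other 12 were not called.

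Of 22 genes of coenzyme Q synthesis and other lipid radical traps, 19 were tested, and DFO raised 4 and lowered 2, with Gch1, Coq10b and Coq2 (0.46) among those that rose and Coq7 and Coq3 (-0.72) as those that fell. Gch1, which starts the synthesis of the radical trap tetrahydrobiopterin, was scarce throughout, at 0.125, 0.199 and 0 FPKM in siControl, 0.668, 0.297 and 0.797 in siNCOA4, 1.29, 1.70 and 1.27 in siControl+DFO, and 0.899, 1.35 and 1.48 in siNCOA4+DFO. It was called with both the siRNA (adjusted p = 0.02917) and DFO (adjusted p = 0.0001745), at levels where the pseudocount weighs on the fold, and the siRNA call was lost with either other pseudocount and without siControl replicate 1 or 3 or siNCOA4 replicate 1 or 3 (range 0.0254 to 0.107). Coq7, a di-iron hydroxylase of coenzyme Q synthesis, moved in opposite directions with the treatments. It rose from 29.7 ± 2.23 to 45.6 ± 4.66 FPKM with the siRNA (log2 fold change 0.61, adjusted p = 0.006927) and fell to 13.1 ± 2.17 FPKM with DFO (log2 fold change -1.18, adjusted p = 5.61e-06). Coq10b, a coenzyme Q carrier, rose from 8.88 ± 0.718 to 19.0 ± 0.161 FPKM with DFO (log2 fold change 1.09, adjusted p = 1.021e-05). The siRNA alone raised 3 genes of this list, Coq2, Coq7 and Gch1.

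Gpx4 is a selenoprotein, and all 10 listed genes of selenoprotein synthesis were tested. DFO raised 3, Scly, Sepsecs (0.42) and Secisbp2l (0.32), and lowered 4, Sephs1, Eefsec, Sephs2 (-0.37) and the peroxiredoxin Prdx6 (-0.31). The selenophosphate synthetase homologue Sephs1 fell from 9.38 ± 1.22 to 5.36 ± 0.757 FPKM (log2 fold change -0.80, adjusted p = 0.0003314), and Eefsec, the elongation factor for selenocysteine, from 10.6 ± 2.35 to 6.77 ± 0.796 FPKM (log2 fold change -0.62, adjusted p = 0.01642). Scly, which frees selenium from selenocysteine, rose from 0.671 ± 0.421 to 1.63 ± 0.350 FPKM (log2 fold change 1.31, adjusted p = 0.02627). Single libraries decided the calls of Scly, lost without siControl or siControl+DFO replicate 2 or 3 (range 0.00795 to 0.114), and of Eefsec, lost without siControl replicate 1 or siControl+DFO replicate 3 (range 0.00716 to 0.0721). The call of Secisbp2l was not firm either (adjusted p = 0.03017, range 0.0127 to 0.18). The siRNA alone called 0 of the 10 in limma, and 2 had an unadjusted p below 0.05, beside 26.2% of all genes.

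Of 24 genes of the fatty acids and phospholipids of the ferroptosis pathway, 19 were tested. DFO raised 2 and lowered 8, and the list's median was -0.28. The risers were Sat1, from 89.8 ± 12.8 to 285 ± 5.54 FPKM (log2 fold change 1.68, adjusted p = 2.837e-07), and Cyb5r1, from 30.2 ± 2.07 to 78.6 ± 8.57 FPKM (log2 fold change 1.37, adjusted p = 1.263e-06). Neither makes lipids, since Sat1 acetylates polyamines and Cyb5r1 passes electrons from NADH. The genes that fell included the desaturases Scd1, Scd2, Fads1 and Fads2 (the last with a range of 0.0101 to 0.0997) and the acyl-CoA synthetases Acsl3 and Acsl5, so that Acsl4 rose while these relatives fell. Acsl6 was called with the siRNA alone (log2 fold change -1.39, adjusted p = 0.04426), at 1.31 ± 0.645 FPKM in siControl and 0.410 ± 0.121 in siNCOA4, a call that 12 of the alternatives did not keep (range 0.0297 to 0.163). The other genes called with the siRNA were Scd1 (-0.32), Fads1 (-0.33), Elovl5 (0.39) and Agps (0.36). None of these was firm, since the adjusted p over the alternatives reached 0.145 for Scd1, 0.113 for Fads1, 0.111 for Elovl5 and 0.149 for Agps.

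All 20 genes of the thioredoxin, peroxiredoxin and other peroxidase list were tested, and DFO raised 5 and lowered 10, with a list median of -0.43. Hmox1, which degrades haem and is another NRF2 target, rose from 10.7 ± 0.391 to 90.5 ± 7.39 FPKM (log2 fold change 3.06, adjusted p = 1.227e-08). Txnip, an inhibitor of thioredoxin, rose from 40.7 ± 2.56 to 242 ± 21.4 FPKM (log2 fold change 2.57, adjusted p = 3.155e-09). Mgst1, a membrane-bound glutathione transferase and peroxidase, fell from 21.4 ± 3.72 to 5.36 ± 3.28 FPKM (log2 fold change -2.19, adjusted p = 0.001037). The other rises were Txnrd1 (0.87), Srxn1 (0.43) and Gpx1 (0.37), the last with an adjusted p of 0.04614 and a range of 0.0286 to 0.186. The siRNA alone lowered 1 gene, the mitochondrial thioredoxin Txn2, from 68.5 ± 4.28 to 42.7 ± 1.42 FPKM (log2 fold change -0.68).

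The last list held 12 transcription factors and partners known to act on some of the 10 genes. DFO changed all 12, 11 upwards and 1 downwards, where 27.7% of all genes rose and 25.7% fell. The median log2 fold change of the list was 1.07. The one that fell was Keap1 (-0.68), the adaptor that targets NRF2 for degradation. Atf3 was listed at 0 in all 6 libraries without DFO and was at 3.37, 1.43 and 2.58 FPKM in siControl+DFO and 0.483, 1.64 and 0.964 FPKM in siNCOA4+DFO. It passed the filter for testing only through libraries with DFO, so among the 11 rises it could be called in no other direction. The small Maf proteins pair with NRF2 or BACH1 on antioxidant response elements, and Maff rose from 2.85 ± 0.591 to 64.3 ± 10.4 FPKM (log2 fold change 4.46, adjusted p = 1.227e-08) and Mafk from 7.86 ± 0.419 to 66.2 ± 5.54 FPKM (log2 fold change 3.06, adjusted p = 3.048e-08). Nfe2l2, which encodes NRF2, rose from 23.4 ± 1.03 to 43.1 ± 1.43 FPKM (log2 fold change 0.88, adjusted p = 2.04e-06). Atf4, singled out after its value was seen because its letters stand in the Slc7a11 window, rose from 256 ± 21.6 to 527 ± 5.67 FPKM with DFO (log2 fold change 1.04, adjusted p = 2.336e-06). With the siRNA alone Atf4 gave -0.11 (adjusted p = 0.5155). In that comparison 2 factors were called, beside 11.7% of all genes, and both were lower. They were Nfe2l1 (-0.39, adjusted p = 0.008563) and Cebpb (-0.48, adjusted p = 0.0294, range 0.0145 to 0.113). Whether any of these factors acted on the 10 genes here was not tested.

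With DFO present, the siRNA lowered 5 of these 12 factors and raised none, where 10.2% of all genes fell. They were Maff (-1.09), Mafk (-0.74), Nfe2l1 (-0.51), Bach1 (-0.29) and Nfe2l2 (-0.26). The calls of Bach1 (adjusted p = 0.04711, range over the alternatives 0.0409 to 0.141) and Nfe2l2 (0.0454, range 0.0333 to 0.25) lay close to the threshold, and those of Nfe2l1, Maff and Mafk held in every alternative tried. Quantile normalization moved the share of higher genes among all calls between the siRNAs with DFO from 37.8% to 50.6%. The share also moved from 38.5% to 45.9% for the siRNA alone and from 51.8% to 45.5% for DFO alone. Directions in these comparisons thus depend in part on scaling.

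**Figure D4:**
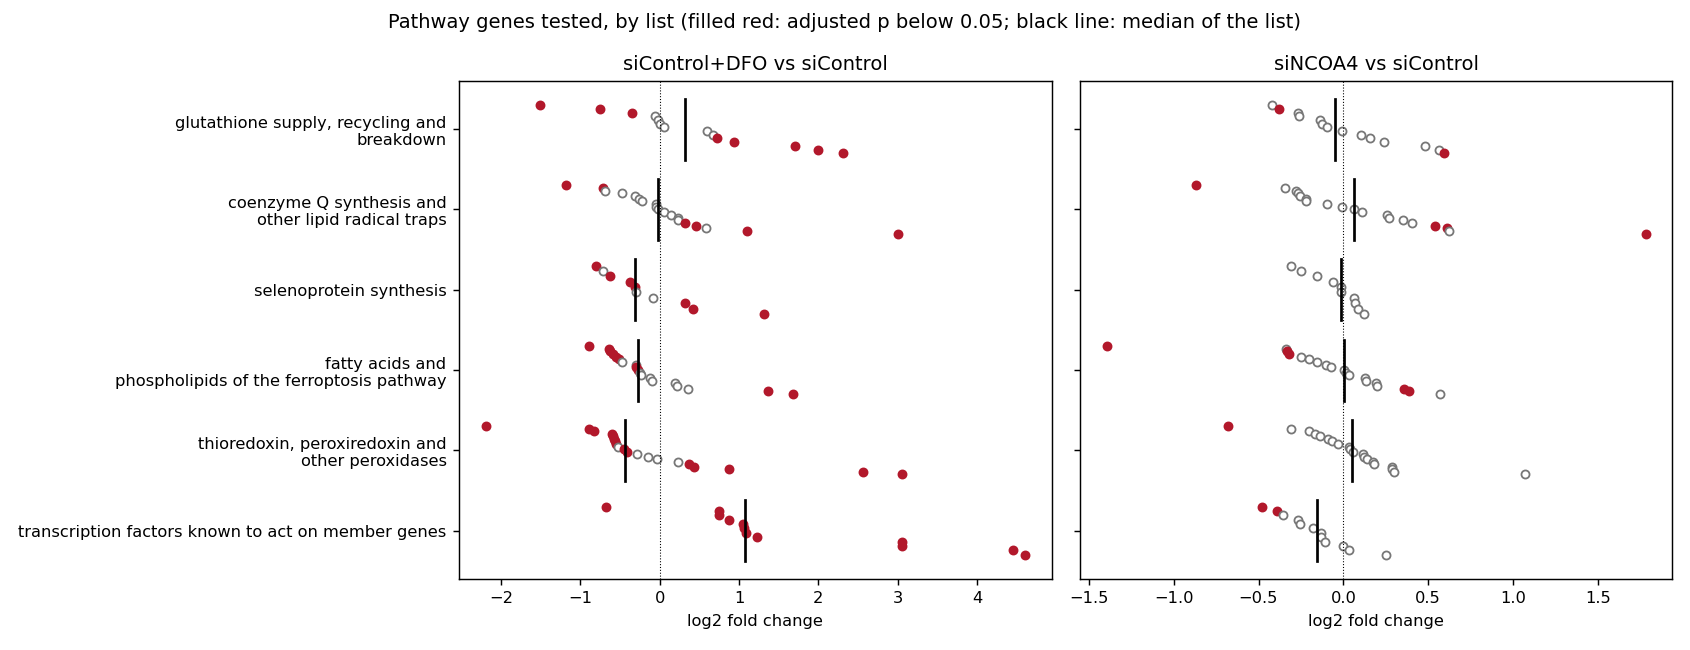
Log2 fold change (x axis, scaled separately in the panels) of every tested gene of the 6 pathway lists (y axis) for siControl+DFO against siControl (left) and siNCOA4 against siControl (right); filled red points have an adjusted p below 0.05 and the black line is the list's median. With DFO the factor list lies at a median of 1.07 and the thioredoxin list at -0.43, while with the siRNA alone the list medians lie between -0.156 and 0.065.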

How the data were processed

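Total RNA from 12 HT22 cultures was sequenced by the authors from stranded low-input libraries. The authors deposited FPKM per gene and library. The submitters' processing notes name Trimmomatic 0.33, FastQC, HISAT2 2.1.0, featureCounts, edgeR and mm10, with no role or order, while the annotation and the strand setting of the counting are not given in the sources used here. Each table held 24347 entries, and 4 that shared a name were left out. FPKM gives no read counts, so no counting interval can be given.

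Groups came from the labels. Differences of log2(FPKM + 0.1) were fitted with limma 3.58.1 in R 4.3.3 as a means model over the 4 groups, with trended empirical Bayes moderation (8 residual and 4.07 prior degrees of freedom) and Benjamini-Hochberg adjustment over the 11924 genes that reached 0.5 FPKM in 3 or more libraries. P-values reflect the spread between the biological replicates. The fit was tried on simulated data with independent normal errors and known 3-fold changes. It recovered from 75.5% of them (interaction) to 88.5% (siNCOA4+DFO against siControl). False calls were 14 of 176 for the siRNA alone, 11 of 182 for DFO alone and 4 of 155 for the interaction.

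The 10 genes and the pathway lists were chosen with earlier results of these data known. Named from each list were the 3 called genes with the largest change in any pairwise comparison and any called for the interaction, with exceptions marked. Gene positions and shared 75-base windows came from GENCODE M21 on GRCm38 and promoter windows from RefSeq on GRCm38.p6. The alternatives were other pseudocounts, filters, scalings and moderation, a replicate block, fits of the compared groups alone, and leaving out each library. Some genes of the lists are not reported here by name.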

Additional observations from a re-analysis of the deposited data

Results flagged for a closer look

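None of the 10 genes was singled out by a test of the difference between the siRNA effects with and without DFO, but 4 of the 94 tested genes of the pathway lists were (4.26%, beside 2.1% of all genes). Their differences were negative on the log2 scale, as were 68.0% of those called over all genes. Txnip, the thioredoxin inhibitor, had a difference of -0.808 (SE 0.14, adjusted p = 0.01742), with siRNA effects of -0.07 without DFO and -0.88 with it. Coq10b, the coenzyme Q carrier, had -0.778 (adjusted p = 0.03934), with 0.27 and -0.51. Cth, the cysteine-making lyase, had -0.631 (adjusted p = 0.03538), with 0.59 and -0.04. Nfe2l2, the NRF2 gene, had -0.505 (adjusted p = 0.04142), with 0.25 and -0.26. The adjusted p over the alternatives ranged from 0.0124 to 0.0538 for Txnip, 0.0154 to 0.0929 for Coq10b, 0.0321 to 0.0881 for Cth and 0.0371 to 0.101 for Nfe2l2, so each call was lost in at least 1 alternative. The Txnip call was lost without siNCOA4 replicate 3 or siControl+DFO replicate 1, and the other 3 with most single libraries left out and under quantile normalization. Groups of 3 are too small for a search for outlying libraries.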

How the results depend on the processing

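Of 21 called changes among the 10 genes, 16 kept their call in every alternative tried, 5 lost it in at least 1 and 0 changed sign. Of 39 uncalled ones, 7 passed in at least 1 alternative and 12 changed sign in at least 1. The number of genes changed by the siRNA alone fell from 2 to 1 under quantile normalization and with moderation without a trend, and lay between 1 and 3 when single libraries were left out, Nqo1 being the gene lost and Acsl4 the gene added (without siNCOA4+DFO replicate 3). Between the siRNAs with DFO it was 2 with the replicate block and 0 to 1 with single libraries left out, and for the interaction it was 1 with the filter at an FPKM of 2 and 0 to 1 with single libraries left out. Sign changes under quantile normalization were Gclc between the siRNAs with DFO (0.013) and Aifm2 in siNCOA4+DFO against siControl (-0.018). With single libraries left out, these log2 fold changes crossed 0. For siNCOA4 against siControl they were Gclm (-0.002 to 0.198), Gpx4 (-0.188 to 0.015) and Aifm2 (-0.025 to 0.143). For siControl+DFO against siControl it was Lpcat3 (-0.016 to 0.227), and for siNCOA4+DFO against siControl Aifm2 (-0.025 to 0.116). For siNCOA4+DFO against siControl+DFO they were Gclc (-0.138 to 0.027), Gclm (-0.055 to 0.071), Aifm2 (-0.136 to 0.009), Acsl4 (-0.01 to 0.073) and Lpcat3 (-0.108 to 0.135). For DFO in siNCOA4 cells it was Aifm2 (-0.103 to 0.058), and for the interaction Gclm (-0.191 to 0.009). The causes were not tested. Replicate numbers did not pair the libraries, since the 18 correlations of same-numbered deviations lay between -0.127 and 0.116. The replicate block added Gss to the calls in both comparisons of siNCOA4+DFO with a single treatment and changed no other call among the 10 genes. FPKM limits what can be said of Gch1, Scly, Acsl6 and Atf3, whose levels lie close to 0.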
